A study of Homo sapiens with 7 samples.

Results

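Histone genes of the replication-dependent type were followed through 4 lists of N6-methyladenosine (m6A) peaks made from HEK-293T, an established line of human embryonic kidney origin. Members were the protein-coding RefSeq genes whose symbols begin with H1- or with H2AC, H2BC, H3C or H4C followed by a digit, which gave 74 of 20056 protein-coding genes. They comprise 10 linker H1 genes, 17 H2A, 19 H2B, 13 H3 and 15 H4 genes, of which 55 lie on chromosome 6, 13 on chromosome 1 and 6 elsewhere. The symbol rule is wider than its label. It takes in H1-10, a linker histone that is made outside S phase too, and the germ-cell linker histones H1-7 and H1-8.

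Replication-dependent histone genes supply the proteins around which newly copied DNA is wrapped, and their mRNAs rise in S phase. Most of these mRNAs have no introns and end in a conserved stem-loop bound by SLBP instead of a poly(A) tail, so that oligo(dT) selection recovers them poorly. A minority of the genes also give longer, polyadenylated transcripts. Each family has many near-identical copies, arranged in clusters in which H2A and H2B genes often start head to head from a shared promoter region.

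The study set an antibody method against a chemical one. In MeRIP, fragmented RNA was captured with an anti-m6A antibody. In m6A-ORL, fragments passed through NO/O2, TDO and the biotin-bearing probe BA before streptavidin capture and release with DTT. Both MeRIP libraries and m6A-ORL replicate 2 were labelled polyA RNA, and m6A-ORL replicate 1 was labelled total RNA, although the protocol, given once for every sample, speaks of oligo(dT) beads. Within m6A-ORL, RNA type and replicate therefore cannot be told apart. All groups used the same cell line, with no treatment compared. The labels do not tie replicates to separate cultures, so p-values reflect the spread among these libraries, and that spread may be technical.

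The MeRIP lists held 20760 and 20216 peaks, and the m6A-ORL lists 11022 and 7661. Read depth is unknown for all 4. Of 6 markers of other cell types, ALB, HBB, PTPRC and CD3E had no peak. Peaks inside GFAP, a glial gene whose strand was not known here, were listed in both MeRIP libraries (6 each, under 3 Ensembl IDs and on both strands), and 1 peak inside INS in m6A-ORL replicate 1.

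A few 150-base stretches of RefSeq sequence (GRCh38.p14) around histone gene starts are shown first, because total RNA gave a peak over the first transcribed bases of each. Each runs 5′ to 3′ from 100 bases before the annotated start to 50 bases after it, and capitals mark the bases under the peak of m6A-ORL replicate 1.
H3C2 (chr6:26032050-26032199, minus strand): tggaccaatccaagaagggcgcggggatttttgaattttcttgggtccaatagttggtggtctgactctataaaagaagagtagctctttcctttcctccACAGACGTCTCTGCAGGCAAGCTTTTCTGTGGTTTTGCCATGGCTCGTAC
H4C5 (chr6:26204510-26204659, plus strand): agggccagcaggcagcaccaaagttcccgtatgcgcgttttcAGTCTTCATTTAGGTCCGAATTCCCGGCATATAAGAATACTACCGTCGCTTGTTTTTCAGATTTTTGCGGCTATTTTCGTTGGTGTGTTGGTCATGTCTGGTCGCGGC
H2AC7 (chr6:26199244-26199393, minus strand): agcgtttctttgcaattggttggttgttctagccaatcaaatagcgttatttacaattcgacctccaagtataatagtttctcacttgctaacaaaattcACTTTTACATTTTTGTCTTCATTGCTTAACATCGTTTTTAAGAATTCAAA
H2AC21 (chr1:149887916-149888065, minus strand): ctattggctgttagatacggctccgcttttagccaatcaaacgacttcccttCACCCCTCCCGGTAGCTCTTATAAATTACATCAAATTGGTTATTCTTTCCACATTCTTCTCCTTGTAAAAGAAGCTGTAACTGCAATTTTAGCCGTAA
H1-10 (chr3:129316237-129316386, minus strand): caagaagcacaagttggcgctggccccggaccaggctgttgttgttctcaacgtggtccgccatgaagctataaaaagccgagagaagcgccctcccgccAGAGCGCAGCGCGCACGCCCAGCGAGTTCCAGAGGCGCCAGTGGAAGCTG
H3C2 and H4C5 carried the best-scored peaks of their families, H2AC7 and H2AC21 are H2A genes of the chromosome 6 and chromosome 1 clusters, and H1-10 is shown as the 1 gene whose first 50 bases lay under a peak in all 4 lists. In H3C2, H2AC7 and H1-10 the capitals begin exactly at the annotated start. In H4C5 the peak began 58 bases before it, and in H2AC21 it began 48 bases before it.

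The promoter letters of the family were searched in the windows of 250 bases before to 50 after the start that RefSeq gives for 67 of the 74 members. The TATA box letters TATAAA, searched on the transcribed strand, were found in 38 of the 67 (56.7%) and in 7.71% of all 27305 windows. They lie 32 bases before the start in H3C2, 29 in H2AC21 and 31 in H1-10, counted to their first base. CCAAT, on either strand, was in every H2A (16), H2B (18) and H3 (11) window, in 8 of 9 H1 windows and in 3 of 13 H4 windows, against 35.7% of all windows. The octamer ATTTGCAT, known as an element of H2B promoters, was found on either strand in 14 of 18 H2B windows and 11 of 16 H2A windows, in 1 H3 window and in no H1 or H4 window (1.80% of all windows). H2A and H2B windows can overlap, since head-to-head partners share the space between their starts.

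The same letters were counted in members with and without a peak in total RNA. TATAAA was in 16 of 26 windows of genes with a peak (61.5%) and in 22 of 41 without (53.7%). CCAAT was in 84.6% and 82.9%. ATTTGCAT was in 13 of 26 and 13 of 41 windows, the widest gap of these 3 motifs. None of these differences was tested or adjusted for family, and the octamer was found almost only in H2A and H2B windows. The core letters GGAC, part of many sites methylated by the METTL3 complex, were searched in the first 50 transcribed bases and found in 8 of 67 members (11.9%; 18.8% of all windows). GGACT was found in none of the 67 and in 4.87% of all windows, which says only that these letters are absent from this stretch.

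The first question was how many histone genes carried a peak by each method. MeRIP listed a peak in 3 of the 74 in replicate 1 (4.05%, exact 95% binomial interval 0.844 to 11.4) and in 4 in replicate 2 (5.41%, 1.49 to 13.3). Among all protein-coding genes, counted the same way, the shares were 40.5% and 39.7%. m6A-ORL listed 29 genes in replicate 1 from total RNA (39.2%, 28.0 to 51.2), against 28.6% of all protein-coding genes. In replicate 2 from polyA RNA it listed 11 (14.9%, 7.66 to 25.0), against 20.4%. The MeRIP intervals lay wholly below the shares of coding genes in general, whereas the m6A-ORL intervals included theirs. The intervals cover counting error only, and genes of 1 family are not independent. Over genes of known strand alone, 2 and 3 of 67 members had a peak by MeRIP, 26 in total RNA and 9 in polyA m6A-ORL, against 41.9%, 40.9%, 29.9% and 21.2% of protein-coding genes.

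Histone genes are short, with a median span of 495.5 nt against 24092.5 nt for all protein-coding genes. Short genes seldom carried peaks in any list. Of 475 other protein-coding genes spanning at most 1000 nt, 5.05% and 4.63% had a MeRIP peak, 3.79% a peak in m6A-ORL replicate 1 and 2.95% in replicate 2 (8.00% in any list). Of the 62 members that short, 1 had a peak by MeRIP in both replicates (1.61%), 23 in total RNA (37.1%, 25.2 to 50.3) and 6 in polyA m6A-ORL (9.68%, 3.63 to 19.9). The interval for total RNA lay above the share of other short genes, and so did that for polyA m6A-ORL. The MeRIP share was lower than the MeRIP shares of other short genes, but its interval (0.0408 to 8.66) included them. With 1 gene, these counts cannot decide whether MeRIP peaks were fewer than in genes of like length. That gene, H2AC25, was overlapped by only 33 and 3 nt of its 239-nt MeRIP peaks. Expression was not measured, so how many of the 475 genes were transcribed in these cells is not known.

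Averaged over libraries, m6A-ORL listed 16.5 more histone genes than MeRIP (p = 0.33 by an exact permutation of the method labels, two-sided, which is also the lowest p that 2 libraries a side can reach). Without the total RNA library the difference was 7.5 genes, and without the polyA m6A-ORL library 25.5. Peaks in both MeRIP lists were found for 3 members (37.4% of protein-coding genes qualified this way) and peaks in both m6A-ORL lists for 6 (12.5%). In all, 34 members had a peak in some list (51.5% of protein-coding genes had one), and 23 of them had it in the total RNA library alone. How many protein-coding genes had a peak in that library alone was not counted.

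**Figure D1:**
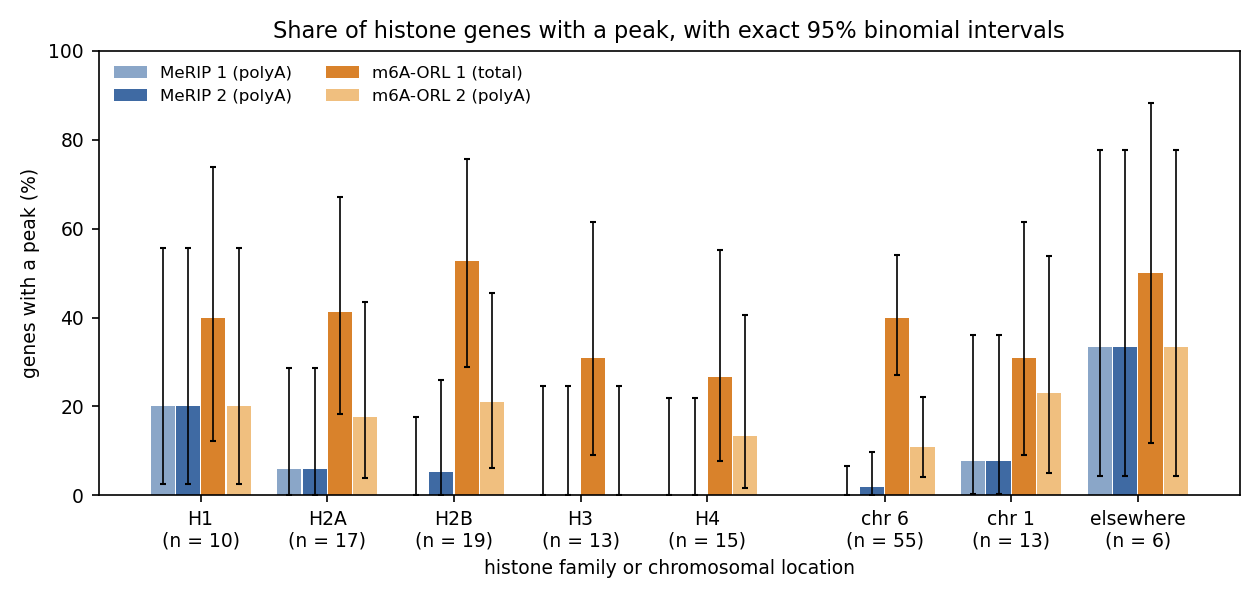
Share of histone genes with at least 1 peak (vertical axis, percent) by family and by chromosomal location (horizontal axis) in the 4 libraries; lines are exact 95% binomial intervals. The bar of m6A-ORL replicate 1 (total RNA) is the tallest in every group, reaching 52.6% for H2B, while MeRIP has no bar for H3 or H4.

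Linker H1 genes, whose proteins bind DNA between nucleosomes, gave the MeRIP peaks that coincided with m6A-ORL. Of 10 H1 genes, MeRIP listed 2 in both replicates, total RNA 4 and polyA m6A-ORL 2. H1-10 had a peak in all 4 lists. Its gene lies outside the histone clusters and its mRNA is polyadenylated. For the 6 H1 genes on chromosome 6, MeRIP and polyA m6A-ORL listed nothing, and total RNA listed H1-2 and H1-3.

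H1-10 (chromosome 3, 129314771 to 129316286, minus strand) carried 3 peaks in both MeRIP libraries, 1 in total RNA and 3 in polyA m6A-ORL. The 3 MeRIP peaks of replicate 1 covered bases 1 to 328, 655 to 1100 and 1278 to 1516 from the gene start. In polyA m6A-ORL the peaks covered bases 1 to 476, 595 to 1011 and 1189 to 1516, so the same 3 places were found by both methods in polyA RNA. The single peak from total RNA covered bases 1 to 150, the first of these places. The best-scored MeRIP peak was the middle one, with deposited scores (the authors' own, read as p-values) of 1e-263 and 1e-232. The best in polyA m6A-ORL was the one at the start (2e-24, rank 117 of 7661).

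H1-2, a main somatic linker histone, had 1 peak in total RNA (bases 43 to 160, score 3.2e-57, rank 261 of 11022). H1-3 had 1 at bases 55 to 113 with a far weaker score (3.6e-06, rank 3933).

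H2A genes, which form 1 of the dimer partners of the core particle, had a MeRIP peak in 1 of 17 in each list, a total RNA peak in 7 (41.2%) and a polyA m6A-ORL peak in 3 (17.6%). The MeRIP gene was H2AC25 on chromosome 1 (228457364 to 228457873, minus strand). Its MeRIP peaks lay almost wholly beyond the annotated end, since 206 of 239 nt in replicate 1 and 236 of 239 nt in replicate 2 were past it. PolyA m6A-ORL put its H2AC25 peak inside the gene, at bases 239 to 359, and total RNA listed none there.

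The best-scored H2A peak in total RNA was that of H2AC17 (bases 37 to 177, score 3.2e-58, rank 259). Next came H2AC7 (bases 1 to 150, 1.6e-30). The 2 peaks in H2AC7 lie on the same strand as the longer RefSeq span of H3C4 as well and were counted for both genes. They carry 2 different Ensembl IDs, as do the 2 nested peaks in H2AC17. H2AC11 (chromosome 6, 27133043 to 27133535) was the H2A gene with peaks in both m6A-ORL lists, but at different places. The total RNA peak covered bases 420 to 540, running 47 nt past the gene end, and the polyA peak covered bases 180 to 330. H2AC16 had a peak in polyA m6A-ORL alone (bases 179 to 347, score 5.9e-07).

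H2AC6 gave the 1 spliced peak among the members. In total RNA its peak (score 1e-17) had a first block of 158 nt from base 421, which ran past the annotated end of the 519-nt gene. A second block of 21 nt began 13364 nt beyond that end. Peaks of more than 1 block made up 9.88% of that list as a whole.

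H2B genes had the highest share in total RNA, 10 of 19 (52.6%, 28.9 to 75.6). In polyA m6A-ORL 4 of 19 had a peak (21.1%), in MeRIP replicate 2 there was 1, and in replicate 1 none, a count that allows a share of up to 15.8%. H2BC21 on chromosome 1 (149884459 to 149886682, minus strand) had the second-best member score in total RNA, 1e-253 (rank 86 of 11022), at bases 31 to 179. PolyA m6A-ORL listed bases 150 to 387 of H2BC21 (1.3e-12, rank 526 of 7661), and MeRIP listed nothing in it. The pair of m6A-ORL peaks overlapped by 30 nt. Only H2BC21 and H1-10 had overlapping peaks in the 2 m6A-ORL lists.

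H2BC5 (chromosome 6, 26158121 to 26171349, plus strand) was the chromosome 6 gene with a MeRIP peak. That peak, in replicate 2 only, lay at bases 12968 to 13113 of a span of 13229 nt, and its score was weak (0.00068, rank 17870 of 20216). Both m6A-ORL peaks lay near the start instead, at bases 26 to 113 in total RNA (6.3e-20) and at bases 461 to 519 in polyA RNA (0.0003). H2BC7 also had a peak in both m6A-ORL lists, at bases 453 to 513 in total RNA and 244 to 304 in polyA RNA, with no overlap. H2BC12 and H2BC11 followed H2BC21 in total RNA, with scores of 6.3e-36 and 6.3e-34.

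Some members have been described as giving polyadenylated transcripts besides the stem-loop form (6 genes, H1-2, H2AC6, H2BC4, H2BC5, H2BC12 and H2BC21). Of these, 5 had a peak in total RNA, 2 in polyA m6A-ORL (H2BC5 and H2BC21), 1 in MeRIP replicate 2 and 0 in MeRIP replicate 1. H2BC4 had none in any list. Of all protein-coding genes, 28.6% had a peak in total RNA, 20.4% in polyA m6A-ORL, and 40.5% and 39.7% in the MeRIP lists. The counts of these 6 genes were not tested against those shares. The RefSeq spans of H2BC4, H2BC5, H2BC12 and H2BC21 run from 2224 to 13229 nt, against a median of 495.5 nt over all members.

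H3 genes had total RNA peaks in 4 of 13 (30.8%, 9.09 to 61.4) and none in the other 3 lists, where a count of 0 allows up to 23.1%. H3C2 (chromosome 6, 26031589 to 26032099, minus strand) carried 1 of the 70 peaks of the total RNA list with a deposited score of 0, the lowest possible. It covered bases 1 to 179. H3C7 followed with bases 31 to 177 (1.6e-46, rank 301). In H3C10 the peak was at the other end, from base 397 to 87 nt past the gene end (2.5e-21). The fourth, H3C4, has only the peaks it shares with H2AC7.

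H4 genes had a total RNA peak in 4 of 15 (26.7%) and a polyA m6A-ORL peak in 2 (13.3%), without a gene in common. No H4 gene had a MeRIP peak, a count that allows up to 20.0%. H4C5 (chromosome 6, 26204610 to 26205021, plus strand) had 2 peaks in total RNA, 1 at each end. The first ran from 58 bases before the start to base 151 (3.2e-99, rank 162) and the second from base 329 to 96 nt past the end (7.9e-21). H4C3 had a short peak at bases 320 to 378, H4C16 on chromosome 12 had bases 1 to 91, and H4C14 on chromosome 1 had bases 3 to 122 with a weak score (0.001, rank 10098). PolyA m6A-ORL listed H4C1 (bases 116 to 172) and H4C8 (bases 223 to 400).

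**Figure D2:**
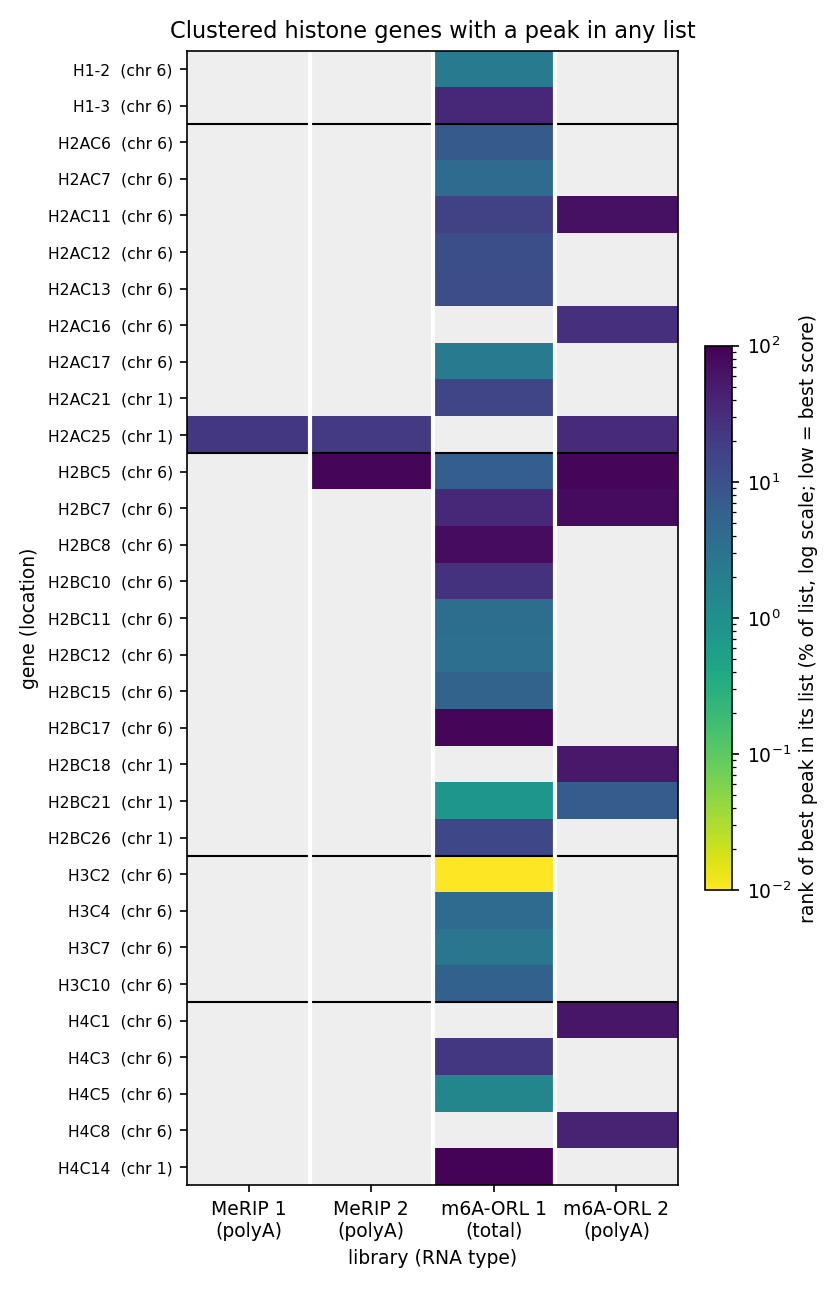
The 31 histone genes of the chromosome 6 and chromosome 1 clusters with a peak in any list (rows, by family) in the 4 libraries (columns), coloured by the rank of the gene's best peak as a percentage of its list (logarithmic colour scale, yellow best); grey cells have no peak. The total RNA column is filled for 26 genes, the polyA m6A-ORL column for 9 and the MeRIP columns for 1 and 2.

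Set side by side, the families had total RNA shares that ran from 26.7% for H4 to 52.6% for H2B, against 28.6% of all protein-coding genes. The intervals of H1, H2A, H3 and H4 included 28.6%, and that of H2B (28.9 to 75.6) began just above it. The differences between families were not tested. H3 and H4 together had no MeRIP peak, and of other protein-coding genes of at most 1000 nt only 5.05% and 4.63% had one. On chromosome 6, total RNA listed 8 of 15 H2B and 6 of 12 H2A genes, against 4 of 10 H3, 2 of 12 H4 and 2 of 6 H1 genes.

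The 2 chromosomes were then compared. Of the 55 members on chromosome 6, 22 had a peak in total RNA (95% interval 27.0% to 54.1%), 6 in polyA m6A-ORL (10.9%), 1 in MeRIP replicate 2 (1.82%) and 0 in replicate 1, which allows up to 5.45%. Of the 13 on chromosome 1 the numbers were 4 (30.8%, 9.09 to 61.4), 3 (23.1%), 1 and 1. The difference between the chromosomes was not tested. The MeRIP gene on chromosome 1 was H2AC25, whose peak lies past its end as described. Over the 68 members in both clusters, the 3 polyA libraries can be set side by side. MeRIP listed 1 and 2 genes (1.47% and 2.94%) and m6A-ORL listed 9 (13.2%). All 3 shares lay below those of protein-coding genes in general (40.5%, 39.7% and 20.4%), but the m6A-ORL interval (6.23 to 23.6) included its 20.4%. Those shares are not matched in span. Of other protein-coding genes of at most 1000 nt, 5.05% and 4.63% had a MeRIP peak and 2.95% a polyA m6A-ORL peak.

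Several chromosome 1 genes are copies of each other. In the RefSeq windows, H4C14 and H4C15 are identical over all 300 bases, H2AC18 and H2AC19 share an unbroken run of 299 bases and H3C14 and H3C15 1 of 296. None of these had a peak except H4C14 in total RNA. The treatment of multi-mapping reads was not stated in the labels, so a peak or its absence in such copies is uncertain. Beyond the copies, every peak counted for a member bore an Ensembl ID that named no peak outside the members (35 IDs, 56 of 56 peaks).

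The clusters also hold other genes, which served to compare neighbours in the same lists. Between the outermost histone genes of chromosome 6 (25726063 to 27893891) lie 20 other protein-coding genes. MeRIP replicate 1 listed 31 peaks there, 0 of them on a histone gene, and replicate 2 listed 33, 1 of them on a histone gene (3.03%). The MeRIP peaks fell on 11 and 10 of the 20 neighbours, among them the butyrophilin genes BTN2A1, BTN2A2 and BTN3A2, the nucleolar protein gene ABT1, HMGN4, a nucleosome-binding protein, and ZNF184. In total RNA 24 of 37 peaks lay on histone genes (64.9%) and 6 neighbours had a peak. In polyA m6A-ORL 6 of 9 lay on histone genes (66.7%) and 1 neighbour, ABT1, had a peak. The region thus was not empty in MeRIP. The neighbours were not matched in span to the histone genes, however. Of the 50 chromosome 6 members of at most 1000 nt, 0 had a peak in either MeRIP list, which allows up to 6.0%. Of other protein-coding genes that short, 5.05% and 4.63% had a MeRIP peak. All 6 neighbours with a total RNA peak also had a MeRIP peak in both replicates.

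**Figure D3:**
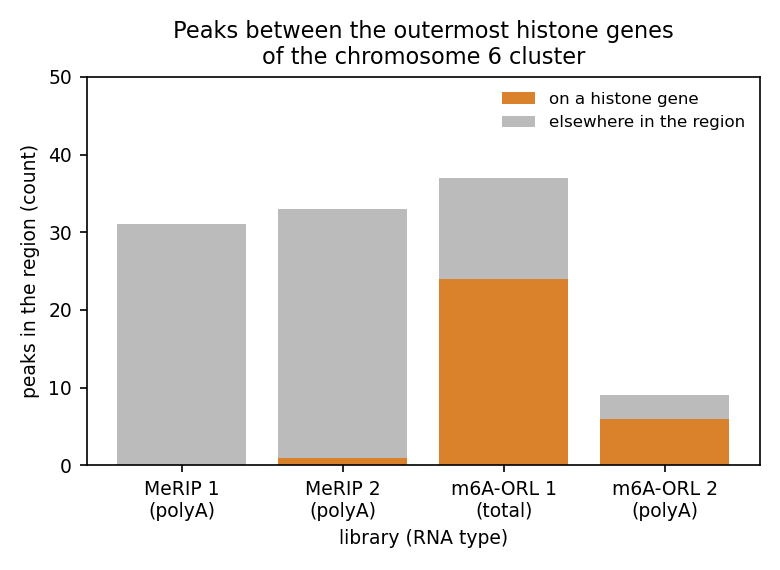
Number of peaks (vertical axis) between the outermost histone genes of chromosome 6 in each library (horizontal axis), split into peaks on a histone gene (orange) and elsewhere (grey). Histone genes hold 0 of 31 and 1 of 33 peaks in the MeRIP lists, 24 of 37 in total RNA and 6 of 9 in polyA m6A-ORL.

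Head-to-head pairs gave another view of neighbours. Among members with a known strand there were 11 pairs of an H2A and an H2B gene whose starts lay 193 to 247 nt apart. In total RNA both genes had a peak in 3 pairs, 1 gene in 6 and neither in 2. The pairs with both were H2AC7 with H2BC7, H2BC11 with H2AC11 and H2AC17 with H2BC17. PolyA m6A-ORL had 1 gene of the pair in 4 cases and never both, and each MeRIP list had 1 gene in 1 case. In H2BC15 the total RNA peak began 270 nt before its start and so covered the space between the pair and the start of H2AC15, on the strand of H2BC15.

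Where the peaks lay inside the gene differed between the m6A-ORL libraries. Among unspliced peaks in members of at most 1000 nt, total RNA had 25, and each gene was divided into 3 equal stretches. The peak midpoint lay in the opening stretch or before it for 16, in the central one for 1 (H2BC10) and in the closing one or beyond for 8. PolyA m6A-ORL had 6, of which 5 lay in the central stretch and 1 in the closing one. Nested peaks at the same place, in H2AC7 and in H2AC17, were counted separately among the 16 opening peaks of total RNA. H2AC12, H4C3 and H4C1, whose strand was not known, were placed by the strand of their peak. In total RNA, 6 peaks ran past the annotated end, by a median of 67.0 nt and at most 96 nt, and 3 began before the annotated start. No polyA m6A-ORL peak in these short members did either. Longer members were left out here, among them H2BC18 (span 29682 nt). Its polyA m6A-ORL peak ran from 3 nt before the start to base 386 (score 2.5e-05). The division into stretches was chosen after the positions had been seen, and the pattern is a description of 31 peaks in 2 libraries. In other short protein-coding genes with a known strand, total RNA had 14 such peaks, 4 in the opening stretch, 2 in the central and 8 in the closing one, and polyA m6A-ORL had 8, split 2, 3 and 3.

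**Figure D4:**
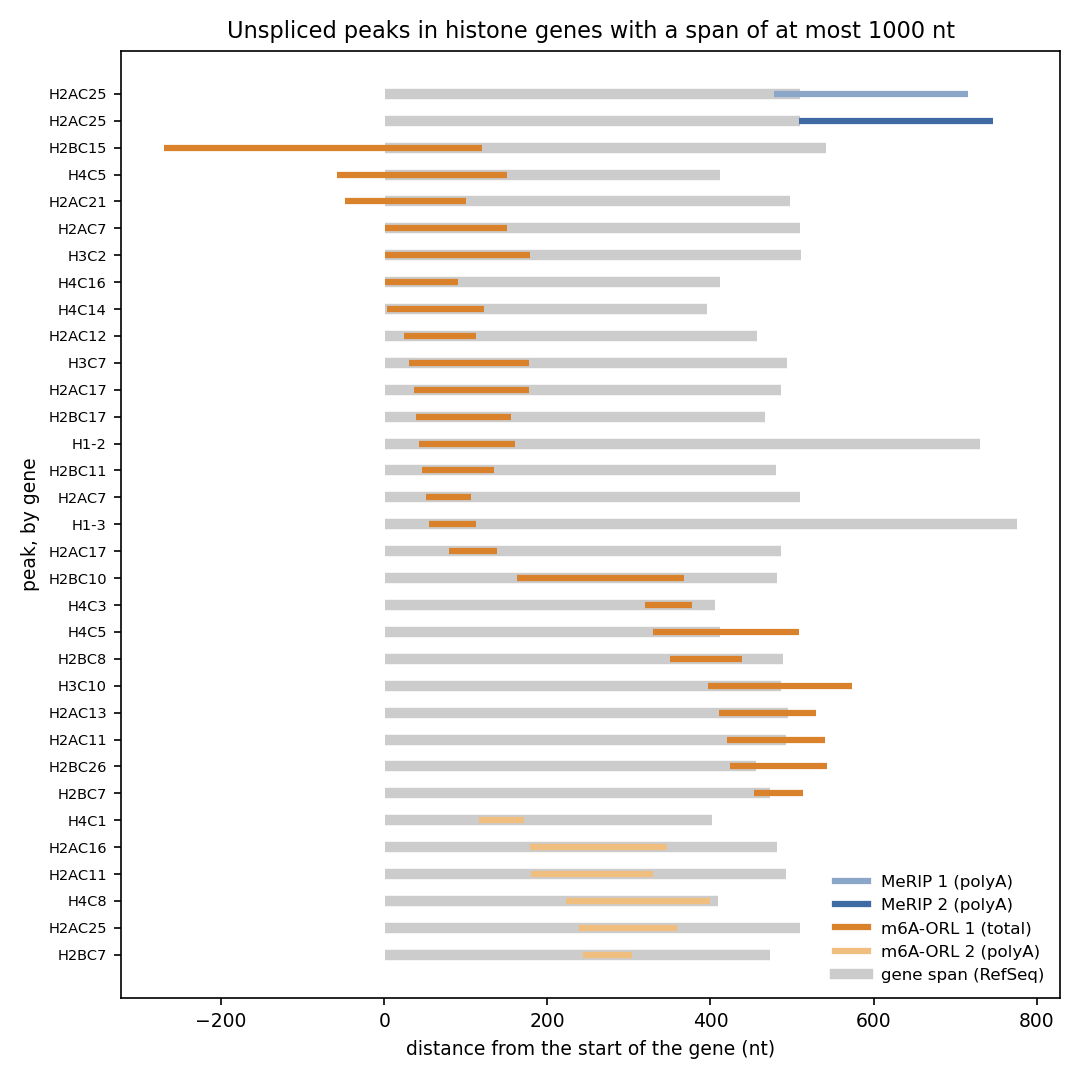
Unspliced peaks in histone genes of at most 1000 nt, drawn as coloured lines by distance from the gene start in nt (horizontal axis), over the RefSeq span of the gene in grey; each row is 1 peak, and peaks shared by H2AC7 and H3C4 are drawn once. Total RNA peaks (dark orange) gather at the 2 ends of the genes, polyA m6A-ORL peaks (light orange) lie mostly in the middle, and the 2 MeRIP peaks (blue) lie past the end of H2AC25.

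By score, histone peaks ranked high in total RNA. The 32 member peaks of that list had a median rank within the best 10.5% of the list, 14 of them were in its best 10% and 2 in its best 1%. The 13 of polyA m6A-ORL had a median rank at 39.8%, with 3 in the best 10%. In MeRIP the 5 and 6 member peaks ranked at medians of 5.71% and 14.3%, and the best-ranked of them was the middle peak of H1-10. Ranks hold within a list and show no change between lists of different length. Histone peaks in total RNA were 120.5 nt long at the median, against 142 nt for the whole list, and those in polyA m6A-ORL 178 nt against 149.

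Peaks of the 2 MeRIP libraries coincided on the members, as 5 of 5 in replicate 1 were overlapped in replicate 2. MeRIP replicate 1 overlapped 3 of 32 member peaks of total RNA (9.38%) and 4 of 13 of polyA m6A-ORL (30.8%), of which 1 and 3 were on H1-10. No core histone peak of m6A-ORL was overlapped by MeRIP, whose core histone peaks lay on H2AC25 and H2BC5 alone. The same shares over all peaks of the lists were not computed, so these overlaps cannot be called particular to histone genes.

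Histone variants, most of them made outside S phase from polyadenylated mRNAs, were the nearest comparison. The counts of this list and the next ones stand against 40.5% and 39.7% of all protein-coding genes in the MeRIP lists, 28.6% in total RNA and 20.4% in polyA m6A-ORL, and none was tested against them. Of 12 such genes (H1-10 included), 6 had a peak in MeRIP replicate 1, 7 in replicate 2, 6 in total RNA and 8 in polyA m6A-ORL, against 3, 4, 29 and 11 of the 74 members. These sets share linker genes, H1-10 among them, so the counts are not separate. The variants were not matched in span to the members, whose median span is 495.5 nt. H2AX, the histone of the DNA damage response, whose mRNA is known with both kinds of end, had 2 peaks in each MeRIP list, 5 in total RNA and 3 in polyA m6A-ORL. Its best score in both MeRIP lists was 0. MACROH2A1, a repressive variant, had 2 and 2 MeRIP peaks, none in total RNA and 2 in polyA m6A-ORL. H3-3A and H3-3B encode the replacement histone H3.3. H3-3A had 1 peak in each MeRIP list and in total RNA, and H3-3B 1 in each m6A-ORL list and none by MeRIP. H2AZ1 had 2 peaks, in total RNA only, and CENPA, the centromere histone, 1, in polyA m6A-ORL only.

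Genes that make or process histone mRNA carried peaks by both methods. Of 16, 9 and 8 had a peak in the MeRIP lists, 8 in total RNA and 3 in polyA m6A-ORL. NPAT, the coactivator of histone gene transcription, had 2 and 3 MeRIP peaks and 3 in total RNA. SLBP, the stem-loop binding protein, had 2 in total RNA and none elsewhere. LSM10, a subunit of the U7 particle that cleaves histone pre-mRNA, had 1 and 2 MeRIP peaks (best scores 1e-109 and 6.3e-94) and 1 in total RNA. UPF1, which acts in histone mRNA decay, was the gene of this list with peaks in all 4 lists (4, 4, 2 and 2). CPSF3, LSM11, ERI1 and NCBP1 had none. Of 10 histone chaperones and partners, 8 and 7 had a MeRIP peak, 6 one in total RNA and 5 in polyA m6A-ORL. CHAF1A, a subunit of the CAF-1 complex that deposits new histones, had 7, 7, 3 and 5 peaks, and NASP, an H3 and H4 chaperone, 4, 4, 2 and 1.

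No peak was listed for 40 of the 74 members. Among them were H1-1, H1-4, H1-5 and H1-6 of the linker family, the testis genes H2AC1 and H2BC1, H1-7, H1-8, H2BC12L and, on chromosome 1, H3C13, H3C14, H3C15, H2AC18, H2AC19, H2AC20 and H4C15. Some list had a peak for 45.9% of members, against 51.5% of all protein-coding genes. Of other protein-coding genes of at most 1000 nt, 8.0% had one. Without read depth or expression, a gene without a peak cannot be told apart from a gene with too few reads to be called.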

How the data were processed

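Peak lists of 4 captured libraries were used, and the 3 input samples were not analysed here. Each list has 12 BED columns, per the file headers. The authors' deposited score is read as a p-value or q-value from its range (0 to 0.0081), and it was used only to rank or filter within a list. Trim Galore, STAR, HOMER and hg38 are named without role, per the submitters' processing notes. For the peak caller and its settings, the labels state nothing.

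After removal of exact duplicate lines (4, 3, 2 and 1), a peak counted for a gene when its blocks overlapped the RefSeq span (GRCh38.p14, the hg38 assembly) by at least 1 nt on the gene's strand. The RefSeq table holds no Ensembl IDs, so 0 IDs matched by ID and assignment was by span. Strand came from the RefSeq promoter table, and 7 members without an entry there and 4213 of all protein-coding genes were matched on either strand. Intervals are exact (Clopper-Pearson) 95% intervals from SciPy 1.17.1, and a count of 0 allows 3 counts. Assignment was tested on simulated peaks. The rule for named genes took those in 3 or more lists, in both lists of a method, or best-scored in a family in a list, with the companion lists. Other members named, such as H1-3, H3C7, H3C10, H4C3, H4C14 and H4C16, were chosen after their values were seen, to account for the members with a peak. The values of 1 member are not reported here. Members and lists were chosen with earlier results of these data known.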

Additional observations from a re-analysis of the deposited data

How the results depend on the processing

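The excess of m6A-ORL over MeRIP, 16.5 genes, kept its direction under all alternatives run (13 to 19 genes, exact permutation p = 0.33 in each) and ranged from 7.5 to 25.5 genes when 1 library was left out. Genes in both m6A-ORL lists numbered 6, and 11 to 29 when that method rested on 1 library, against 3 to 4 for MeRIP. With the best-scored 50% of each list, polyA m6A-ORL had 6 genes instead of 11, and 3 genes were in both m6A-ORL lists. Restricted to the chromosome 6 and 1 clusters, the MeRIP lists had 1 and 2 genes, with 1 in both, because members outside them, H1-10 among them, drop out. At an overlap of at least 50% of the peak, 0% instead of 15.4% of polyA m6A-ORL member peaks were overlapped in total RNA. Counts for total RNA lay between 26 and 31 throughout. An extension of spans by 1000 nt and the omission of members without strand were chosen after seeing the data. No paired analysis was possible because each library gives a single count and shared replicate numbers are not stated to mark a common preparation. Read depth is unknown, so absence of a peak limits nothing about methylation.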
